A study of Mus musculus with 12 samples.

Results

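The interleukin-6 family is a set of secreted cytokines that signal through a shared receptor chain, gp130. Here 10 of its genes were followed by name, 6 cytokines (Il6, Lif, Clcf1, Cntf, Il11 and Osm) and 4 receptor chains (Il6st, which encodes gp130, with Osmr, Lifr and Il6ra). All 10 were found in both deposited tables, among 32285 genes in the retina table and 55401 in the other. Each cytokine gathers gp130 into a complex, in most cases with a further signalling chain such as LIFR or OSMR, and JAK kinases bound to these chains phosphorylate STAT3. SOCS3, itself a STAT3 target, shuts the signal off. In the retina and the brain this family is known for the reactive response of glia to injury, and CNTF and LIF are known to favour the survival of neurons.

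The study compared small extracellular vesicles of mesenchymal stem cells with phosphate-buffered saline (PBS) in wild-type mouse samples, in 12 bulk RNA libraries that form 4 groups of 3. The retina libraries were taken on day 1 after optic nerve crush, an injury to the axons of retinal ganglion cells. Every retina sample had the crush. The first retina group had the crush with vesicles, marked i.o. in the labels, which do not spell this out, and the second had the crush with PBS. The cell libraries, labelled brain microvascular pericytes P4, came from cells given vesicles or PBS for 12 hours. No uninjured retina was analysed here, so the values say nothing of the crush itself. The labels give no animal or culture behind a library, so the p-values measure only the spread between these libraries, which may be technical. The retina columns carry short names that were mapped to the groups by inference, and the numbers of the libraries are only column numbers.

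Retina libraries held between 15580024 and 16842926 counts and pericyte-labelled libraries between 33001248 and 37954077. A count of 3 in 1 library, used here as the floor of detection, equals 0.180 to 0.196 CPM (counts per library, scaled so that library totals are equal) in the retina and 0.0778 to 0.0895 CPM in the cell libraries. Rod markers were abundant in every retina library (summed levels below), which fits the tissue label. In the cell libraries Pdgfrb, a receptor of pericytes, averaged 70.8 ± 4.89 CPM with vesicles and 59.7 ± 3.48 CPM with PBS (SD, n = 3 each). The sum of 10 pericyte or mural markers was between 698 and 714 CPM with vesicles and between 668 and 712 CPM with PBS, most of it from Acta2, the actin of contractile cells (587 CPM with vesicles and 572 CPM with PBS). Notch3, Cspg4, Mcam and Anpep were detected, with means from 4.12 to 18.6 CPM with vesicles and from 5.97 to 25.0 CPM with PBS. Of the same list Rgs5, Kcnj8, Abcc9 and Des each averaged under 1 CPM in both groups. The astrocyte water channel Aqp4 averaged 623 CPM with vesicles and 477 CPM with PBS, and the oligodendrocyte-lineage factor Olig1 averaged 150 and 208 CPM in the same order. The markers therefore go partly against the label, and the cells are called pericyte-labelled cultures throughout.

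With vesicles, the crushed retina held more mRNA for most of the family. Of the 10 genes, 9 had enough counts to be tested, and 7 of those were higher with vesicles (edgeR quasi-likelihood test, Benjamini-Hochberg adjusted p under 0.05). Over the 15440 genes tested in the retina, 15.9% were called, 10.7% higher and 5.19% lower. All 9 log2 fold changes were positive. Their median was 2.90, against -0.015 over all tested genes. In 8 of the 10 genes, Il11 included, every vesicle library was above every PBS library, while 19.5% of all tested genes had no overlap in that direction. In bulk tissue, more cells of a type and more RNA per cell cannot be told apart.

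Il6, the founding cytokine of the family and an early product of activated glia and myeloid cells, had 12.2, 31.9 and 13.8 CPM in the 3 vesicle retinas, against 0, 0.122 and 0.180 CPM in the 3 PBS retinas. Every vesicle retina was far above the floor of detection, and every PBS retina was at or under it. The raw counts were 919 with vesicles and 5 with PBS, a depth-corrected ratio of 187 (95% exact interval 79.6 to 576, counting error only). The fitted log2 fold change was 7.44 ± 0.70 (SE; 95% interval 5.79 to 9.09; edgeR adjusted p = 8.5e-04), which placed Il6 at rank 12 of the 15440 tested genes.

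The 250 bases before the start site of Il6 are shown because Il6 had the highest fold change of the family in both settings. Those of Lif and Il11, the cytokines next in fold change in the cultures, and of the shared chain Il6st follow (RefSeq, GRCm38.p6). Clcf1, Osm, Cntf and Lifr are not shown, and the Osmr and Il6ra windows lie in annotated exons. Each is written 5′ to 3′ on the gene's strand, and capitals mark matches to 3 searched motifs. These were GGNNTTTCC (an NF-kB form), TGANTCA (AP-1) and TTNNGNAA (C/EBP), each read on both strands, and no match overlapped another. The STAT form TTCNNNGAA was also searched. The windows are chr5:30012864-30013113 on the plus strand for Il6, chr11:4257318-4257556 on the plus strand for Lif (239 bases, its exon bases left out), chr7:4778142-4778391 on the minus strand for 1 of 2 listed starts of Il11, and chr13:112463820-112464069 on the plus strand for Il6st.
Il6: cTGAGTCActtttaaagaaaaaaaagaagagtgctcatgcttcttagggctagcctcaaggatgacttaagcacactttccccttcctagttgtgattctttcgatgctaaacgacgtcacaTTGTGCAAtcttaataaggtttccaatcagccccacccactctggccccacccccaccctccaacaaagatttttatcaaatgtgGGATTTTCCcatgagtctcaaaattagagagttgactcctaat
Lif: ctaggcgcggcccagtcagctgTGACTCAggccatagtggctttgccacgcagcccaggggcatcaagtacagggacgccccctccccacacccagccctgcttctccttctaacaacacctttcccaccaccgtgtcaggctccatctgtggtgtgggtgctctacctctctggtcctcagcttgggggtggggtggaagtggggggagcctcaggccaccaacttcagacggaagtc
Il11: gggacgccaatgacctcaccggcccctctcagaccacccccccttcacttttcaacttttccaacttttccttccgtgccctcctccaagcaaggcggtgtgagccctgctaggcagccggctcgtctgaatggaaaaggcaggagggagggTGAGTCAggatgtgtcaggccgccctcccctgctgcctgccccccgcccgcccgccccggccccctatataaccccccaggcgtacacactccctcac
Il6st: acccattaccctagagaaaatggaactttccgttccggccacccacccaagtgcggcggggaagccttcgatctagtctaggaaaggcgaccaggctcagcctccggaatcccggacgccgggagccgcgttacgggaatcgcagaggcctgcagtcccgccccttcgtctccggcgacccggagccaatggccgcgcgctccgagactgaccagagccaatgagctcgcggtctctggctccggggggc
Of these, the Il6 window was the one with a GGNNTTTCC match, which begins at position -43 from the start site, a form found in 4.93% of 32851 promoter windows of the same length. It also held a TTNNGNAA match at -128 (36.8% of windows) and a TGANTCA match at -249. TGANTCA, found in 6.75% of windows, also stood at -228 in the Lif window and at -98 in the Il11 window. The Cntf window, searched but not shown, held it too, at -245, and Cntf was not called in the retina. No match to any of the 4 forms was found in the Il6st window, and TTCNNNGAA, found in 7.02% of windows, was in none of the 4 sequences. A match describes the letters and does not show that a factor binds.

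Lif, known in rodents as a product of Müller glia in the damaged retina, had 7.45, 9.42 and 5.87 CPM in vesicle retinas, against 0.587, 0.304 and 0.240 CPM in PBS retinas. Every vesicle retina was well above every PBS retina, and Lif rose 19.9-fold on the fitted scale (log2 fold change 4.31 ± 0.39, edgeR adjusted p = 1.63e-04). Osm, a cytokine made mainly by myeloid cells and T cells, had 3.82, 5.75 and 6.30 CPM in vesicle retinas, against 0.522, 0.122 and 1.14 CPM in PBS retinas. Its PBS libraries were uneven but all lay below the vesicle libraries, and it rose 8.76-fold (log2 fold change 3.13 ± 0.56, adjusted p = 0.00637). Without the library richest in lens mRNA in each group, which leaves 4 libraries, the Osm log2 fold change was 3.00, close to its value in all 6, and the adjusted p was 0.086.

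Clcf1, a cytokine that acts through the CNTF receptor, had 4.91, 4.93 and 2.65 CPM in vesicle retinas, against 1.31, 1.40 and 1.62 CPM in PBS retinas. It did not overlap between groups and rose 2.87-fold (log2 fold change 1.52 ± 0.33, edgeR adjusted p = 0.0137). That call rested on single libraries: the adjusted p was 0.0617 without vesicle library 1, 0.0548 without vesicle library 2, 0.057 without PBS library 2 and 0.0998 without the library richest in lens mRNA in each group, with log2 fold changes of at least 1.33 in these 4 fits. Il11, a cytokine with its own receptor chain that is known for its action on fibroblasts, had 0.701, 1.52 and 0.309 CPM in vesicle retinas, against 0, 0 and 0.180 CPM in PBS retinas. Its 40 counts with vesicles and 3 with PBS were too few for the filter on low counts, so it was not tested. The depth-corrected ratio of those counts was 13.5 (95% exact interval 4.31 to 68.4, counting error only).

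Cntf, a factor without a signal peptide that glia hold in the cytoplasm, differed from the other cytokines. It had 40.2, 80.1 and 32.6 CPM in vesicle retinas, against 33.2, 19.6 and 21.4 CPM in PBS retinas, and vesicle library 3 lay below PBS library 1. The log2 fold change was 1.04 ± 0.41 (95% interval 0.03 to 2.06) and missed the threshold (edgeR adjusted p = 0.156). Without vesicle library 2 and PBS library 1, the libraries richest in lens mRNA, it was 0.84 with an adjusted p of 0.0164, so the call depended on which libraries were used. Cntf counts are uncertain for a further reason, since 78.9% of its exon bases (847) lie in exons of Zfp91 on the same strand in the GENCODE M21 annotation. Zfp91 itself averaged 142 ± 7.98 CPM in vesicle retinas and 148 ± 12.0 CPM in PBS retinas (SD, n = 3 each; adjusted p = 0.700). In the pericyte-labelled cultures Zfp91 averaged 138 CPM in both groups, while Cntf averaged 0.204 CPM with vesicles and 0.143 CPM with PBS. The part of Zfp91 reads in the Cntf counts of the retina was not tested.

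**Figure D1:**
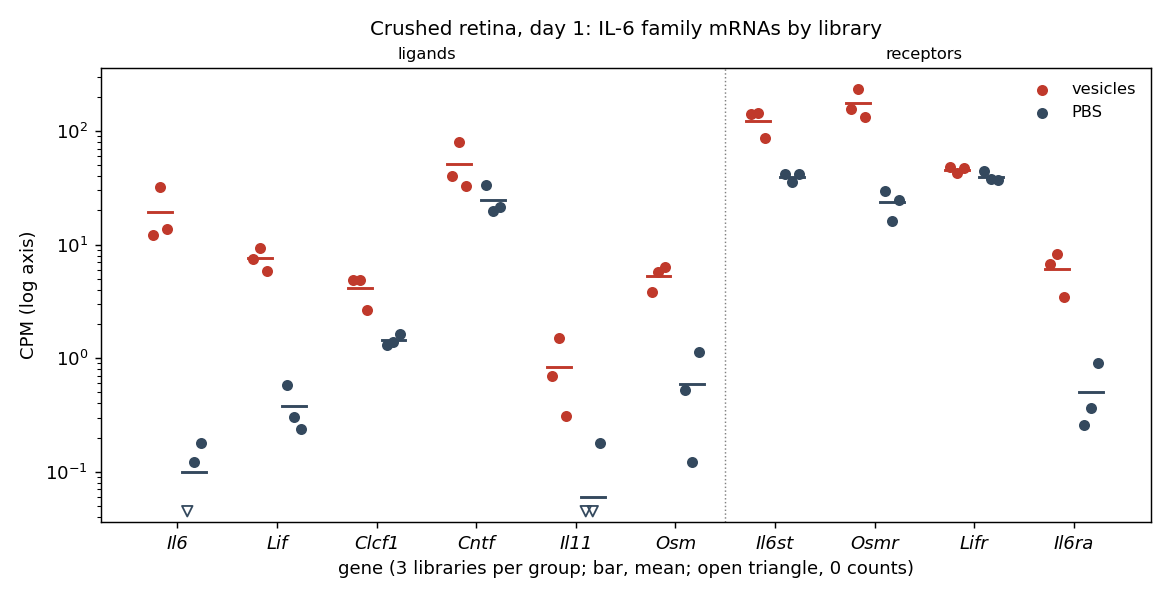
Levels of the 10 genes in each crushed retina library on day 1, in CPM on a log axis, with vesicle libraries left of PBS libraries, a bar at each mean and an open triangle for a library with 0 counts. Il6, Lif, Clcf1, Il11, Osm, Il6st, Osmr and Il6ra have every vesicle library above every PBS library, while Cntf and Lifr overlap.

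Among the receptors, gp130 itself was higher with vesicles. Il6st had 140, 143 and 86.6 CPM in vesicle retinas, against 41.8, 35.6 and 41.9 CPM in PBS retinas, and rose 3.09-fold (log2 fold change 1.63 ± 0.19, edgeR adjusted p = 0.00157). The PBS libraries lay close together, and the lowest vesicle library was still above all of them. Osmr, the chain that pairs with gp130 to bind oncostatin M, had 157, 236 and 134 CPM in vesicle retinas, against 29.9, 16.1 and 24.8 CPM in PBS retinas. The groups were far apart, and Osmr rose 7.46-fold (log2 fold change 2.90 ± 0.32, adjusted p = 0.00282). Il6ra, the chain that binds IL-6 and is carried mainly by leukocytes and hepatocytes, had 6.75, 8.22 and 3.46 CPM in vesicle retinas, against 0.261, 0.365 and 0.901 CPM in PBS retinas. It rose 11.8-fold with no overlap (log2 fold change 3.56 ± 0.50, adjusted p = 0.00178).

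Lifr, the chain shared by LIF, CNTF and CLCF1, showed no called change. It had 48.3, 42.4 and 46.9 CPM in vesicle retinas, against 44.3, 37.5 and 37.3 CPM in PBS retinas, and the lowest vesicle library lay below the highest PBS library. Its log2 fold change was 0.21 ± 0.11 (95% interval -0.04 to 0.46; edgeR adjusted p = 0.239), so a rise of up to 0.46 on the log2 scale remains within its error. Osmr and Lifr are neighbours on chromosome 15 of GRCm38.p6 (6813568 to 6874968 and 7090610 to 7197489), with no protein-coding gene of the RefSeq table between them. Osm and Lif, which both rose, are likewise neighbours on chromosome 11 (4236785 to 4241026 and 4257568 to 4272514), 16.5 kilobases apart.

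Per length, as CPM per kilobase of exon (FPKM, from GENCODE M21 exon lengths), the order of the cytokines differed between groups. In vesicle retinas Cntf led at 47.5 FPKM, with the doubt about shared exons given above, followed by Il6 at 7.94, Osm at 2.33, Lif at 1.74, Clcf1 at 1.09 and Il11 at 0.405 FPKM. The ranges of Osm and Lif overlapped, as did those of Clcf1 and Il11. In PBS retinas Cntf was at 23.1 FPKM, and every other cytokine was under 1 FPKM, from Clcf1 at 0.379 to Il11 at 0.0289 FPKM, with overlapping ranges between each pair of neighbours. The receptor order in vesicle retinas was Osmr at 14.5, Il6st at 11.1, Lifr at 4.26 and Il6ra at 0.711 FPKM, the first pair overlapping. In PBS retinas Lifr (3.68 FPKM) and Il6st (3.58 FPKM) overlapped, and Osmr (1.95 FPKM) and Il6ra (0.0589 FPKM) came after them.

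Marker genes of other cells moved beside these results. All 6 leukocyte markers were called higher, and their summed level was between 588 and 874 CPM in vesicle retinas and between 53.4 and 84.3 CPM in PBS retinas. All 6 neutrophil markers were called higher, with sums between 324 and 709 CPM in vesicle retinas and between 3.22 and 13.8 CPM in PBS retinas, and none was at 0 in all libraries. Of 6 microglia markers 4 were called lower (sums between 40.1 and 42.4 CPM with vesicles and between 67.8 and 73.0 CPM with PBS), and 5 of 6 rod markers were called lower (62400 to 75700 CPM with vesicles and 92600 to 97500 CPM with PBS). The sum of 6 Müller glia markers was between 1380 and 2020 CPM with vesicles and between 1570 and 2560 CPM with PBS. Markers of T or NK cells summed to between 1.98 and 6.31 CPM with vesicles and between 0.486 and 0.661 CPM with PBS, without overlap. Fibroblast sums (26.8 to 150 CPM with vesicles and 23.0 to 33.6 CPM with PBS) and mural sums (68.9 to 201 CPM with vesicles and 62.8 to 70.9 CPM with PBS) overlapped, with vesicle library 3 low in both. The part of these cells in the levels of Il6, Osm, Il6ra and the other members was not tested. Lens mRNA took 1.63%, 6.35% and 0.00897% of counts in vesicle retinas 1 to 3, against 0.569%, 0.0595% and 0.0504% in PBS retinas 1 to 3. Vesicle library 2, the richest in lens mRNA, was the highest vesicle library for 8 of the 10 members, and library 3 was the lowest for 7. Il6, Lif, Il6st, Osmr and Il6ra kept their call without the library richest in lens mRNA in each group.

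The pericyte-labelled cultures gave the same direction for most of the family. Of 9 tested genes 8 were called higher with vesicles and 1, Lifr, lower. Over the 16975 genes tested there, 10.9% were called higher and 8.9% lower. In 8 of the 10 genes every vesicle culture was above every PBS culture, against 17.4% of all tested genes. The median log2 fold change was 1.21 over the tested members and 0.001 over all tested genes. Of the 8 members tested in both settings, 7 were called higher in both, which held for 4.08% of the 13712 genes tested in both.

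Il6 had 2.00, 1.51 and 2.21 CPM in vesicle cultures, against 0.104, 0.0297 and 0.0270 CPM in PBS cultures. PBS cultures were around or under the floor of detection, with 6 counts in all against 204 with vesicles, a depth-corrected ratio of 34.6 (95% exact interval 15.6 to 95.5, counting error only). The fitted log2 fold change was 5.04 ± 0.56 (edgeR adjusted p = 8.72e-07), rank 33 of the tested genes. Lif had 25.4, 20.0 and 25.1 CPM in vesicle cultures, against 4.85, 4.19 and 4.16 CPM in PBS cultures. Both groups were tight, and Lif rose 5.32-fold (log2 fold change 2.41 ± 0.13, adjusted p = 5.11e-12).

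Il11 was well above the floor in these cultures, with 7.79, 4.79 and 4.71 CPM with vesicles, against 1.24, 1.04 and 0.918 CPM with PBS. It rose 5.37-fold with no overlap (log2 fold change 2.42 ± 0.25, edgeR adjusted p = 2.62e-07). Clcf1 had 99.4, 95.3 and 105 CPM in vesicle cultures, against 48.9, 42.4 and 42.6 CPM in PBS cultures, a 2.23-fold rise (log2 fold change 1.16 ± 0.07, adjusted p = 4.36e-11). Every vesicle culture held about the same Clcf1 level, as did every PBS culture.

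Osm and Cntf were scarce there. Osm had 0.298, 0.493 and 0.539 CPM in vesicle cultures, against 0.156, 0.119 and 0.0540 CPM in PBS cultures, from 48 and 12 counts in the same order. The ranges did not overlap, but the call was at the threshold (log2 fold change 1.99 ± 0.69, edgeR adjusted p = 0.0487) and was lost under 10 of 12 alternatives, with adjusted p between 0.0223 and 0.227 over all of them. With DESeq2 it was 0.0555, with limma 0.0544, and without each library in turn it was between 0.0575 and 0.227. Cntf had 0.477, 0.0821 and 0.0539 CPM in vesicle cultures, against 0.130, 0.0297 and 0.270 CPM in PBS cultures. These overlapping values came from 21 and 16 counts in the same order, too few to be tested (ratio 1.34, 95% exact interval 0.665 to 2.74, counting error only).

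**Figure D2:**
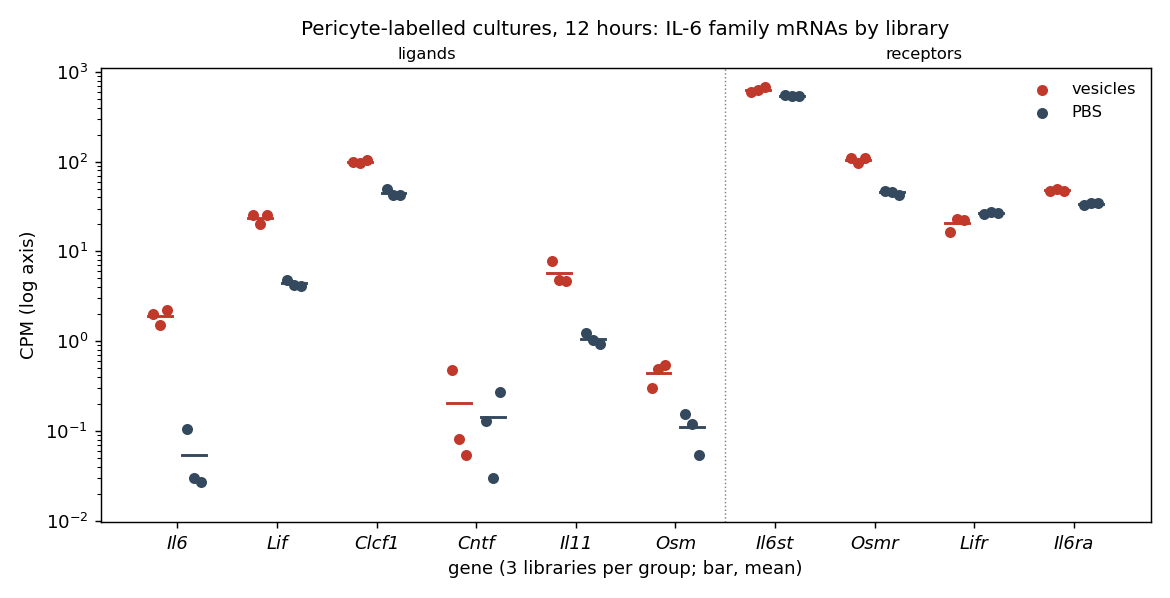
Levels of the 10 genes in each pericyte-labelled culture after 12 hours, in CPM on a log axis, with vesicle libraries left of PBS libraries and a bar at each mean. Il6, Lif, Clcf1, Il11, Osm, Il6st, Osmr and Il6ra have every vesicle culture above every PBS culture, Lifr has every vesicle culture below, and Cntf overlaps near the floor of detection.

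In the cultures the 4 receptors had a median log2 fold change of 0.35, against 2.41 for the 5 tested cytokines. Osmr had 110, 97.2 and 109 CPM in vesicle cultures, against 47.6, 46.1 and 42.9 CPM in PBS cultures, and rose 2.31-fold (log2 fold change 1.21 ± 0.07, edgeR adjusted p = 1.48e-11). Il6ra had 46.9, 48.9 and 47.4 CPM in vesicle cultures, against 33.2, 34.3 and 34.6 CPM in PBS cultures, a 1.40-fold rise (log2 fold change 0.49 ± 0.07, adjusted p = 2.09e-05). In both genes the groups were tight and did not overlap.

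Il6st had 589, 623 and 672 CPM in vesicle cultures, against 553, 539 and 538 CPM in PBS cultures, a rise of 1.16-fold (log2 fold change 0.21 ± 0.06, edgeR adjusted p = 0.0144). This small call was lost without vesicle library 3 (adjusted p = 0.0883), PBS library 2 (0.0899) or PBS library 3 (0.0873). Lifr had 16.5, 23.2 and 22.1 CPM in vesicle cultures, against 26.1, 27.7 and 27.0 CPM in PBS cultures, and fell (log2 fold change -0.38 ± 0.11, adjusted p = 0.0128). All vesicle cultures were lower, library 1 the most, and the adjusted p was 0.0511 without that library and 0.0625 without PBS library 2.

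Per length, the cultures ordered the family differently from the retina. In vesicle cultures the cytokine order was Clcf1 at 26.2 FPKM, Lif at 5.40, Il11 at 2.77, Il6 at 0.784, Osm at 0.195 and Cntf at 0.190 FPKM, with overlap between the last pair. In PBS cultures Clcf1 was at 11.7, Lif at 1.01 and Il11 at 0.513 FPKM, and Cntf, Osm and Il6 (0.133, 0.0482 and 0.0220 FPKM) overlapped their neighbours. gp130 led the receptors in both groups, with Il6st at 56.6 FPKM in vesicle cultures and 48.9 FPKM in PBS cultures. It was followed in vesicle cultures by Osmr (8.69 FPKM), Il6ra (5.52 FPKM) and Lifr (1.91 FPKM), and in PBS cultures by Il6ra (3.94 FPKM), Osmr (3.76 FPKM) and Lifr (2.50 FPKM), of which the first pair overlapped. The tables hold different gene classes, so levels were not compared between them.

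In the cultures 1 of 6 leukocyte markers, Ptprc, was called higher, at 1.13 ± 0.0814 CPM with vesicles and 0.254 ± 0.178 CPM with PBS (SD, n = 3 each). The summed leukocyte level was between 90.3 and 136 CPM with vesicles and between 83.1 and 88.1 CPM with PBS. The neutrophil markers S100a9, Retnlg, Cxcr2 and Ly6g were at 0 in all 6 libraries, and the sum of the 6 markers was at most 0.458 CPM with vesicles and 0.285 CPM with PBS. Microglia markers summed to between 172 and 190 CPM with vesicles and between 184 and 194 CPM with PBS. Astrocyte markers summed to between 1160 and 1210 CPM with vesicles and to 1130 CPM with PBS. Of these 6 markers 1, Aqp4, was called higher and 2, Gja1 and S100b, were called lower. Oligodendrocyte-lineage markers summed to between 215 and 254 CPM with vesicles and between 291 and 303 CPM with PBS, without overlap. Olig1 and Olig2 were called lower and Cspg4 higher. Endothelial markers summed to between 85.7 and 93.0 CPM with vesicles and between 57.6 and 58.8 CPM with PBS, without overlap, with Flt1 called higher and Kdr lower. The part of these cell types in the culture results was not tested.

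**Figure D3:**
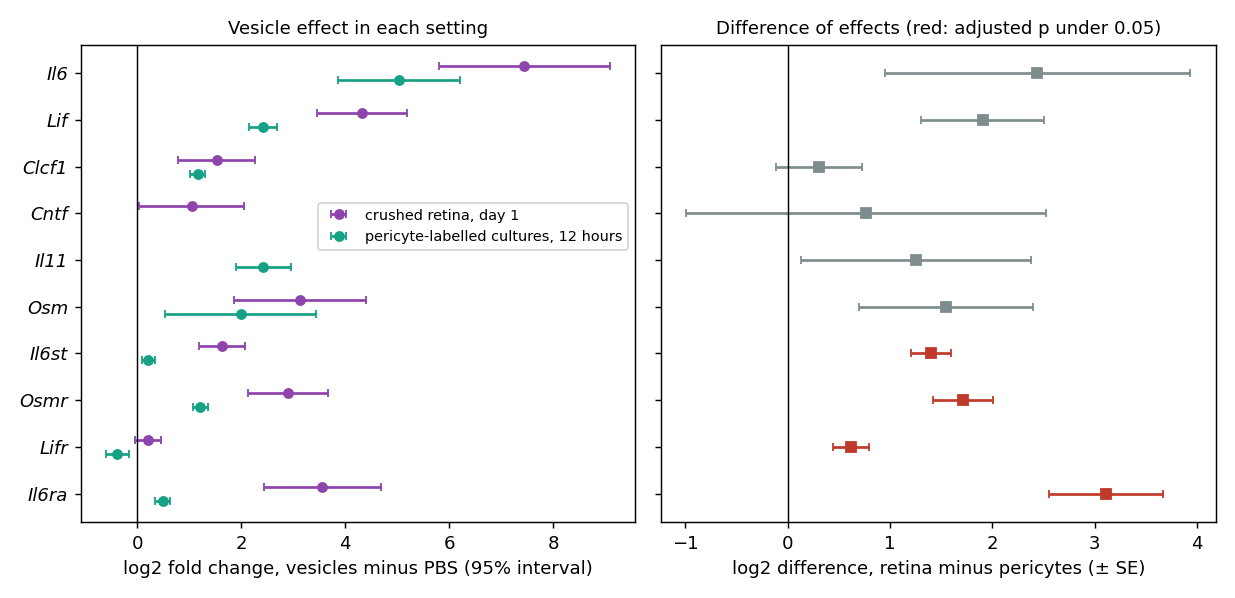
Left, log2 fold change of each gene, vesicles minus PBS, with its 95% interval in the crushed retina (day 1) and in the pericyte-labelled cultures (12 hours); Il11 was not tested in the retina and Cntf not in the cultures. Right, the difference between these effects, retina minus cultures, with its SE, in red where its adjusted p is under 0.05, as for Il6st, Osmr, Lifr and Il6ra.

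Whether the vesicle effect differed in size between the settings was tested directly (limma interaction over all 12 libraries, adjusted over 17374 genes, of which 6.29% were called with a larger effect in the retina). All 4 receptors passed. Of the 6 cytokines none did, and Lif alone had an unadjusted p under 0.05 (0.00553). The difference, retina minus cultures on the log2 scale, was 3.11 ± 0.56 for Il6ra (adjusted p = 0.00165), 1.71 ± 0.29 for Osmr (adjusted p = 0.00329) and 1.40 ± 0.20 for Il6st (adjusted p = 4.29e-04). For Lifr, which fell in the cultures and was not called in the retina, it was 0.62 ± 0.17 (adjusted p = 0.0302), and that call was lost when any 1 of 7 libraries was left out (adjusted p between 0.0544 and 0.156). These were retina vesicle libraries 1, 2 and 3, retina PBS libraries 2 and 3, and culture PBS libraries 2 and 3. For Lif the difference was 1.91 ± 0.60 and just missed the threshold (adjusted p = 0.0549), which it passed under 6 of 16 alternatives. For Il6 it was 2.44 ± 1.49 (adjusted p = 0.368), an error too wide to tell the settings apart, and for Clcf1 0.31 ± 0.42 (adjusted p = 0.744). The settings differ in tissue, injury and time at once, so these cannot be told apart as sources of the differences.

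The other genes of the pathway were counted from 3 lists, which were chosen with earlier results of these data known. The counts of all 3 lists are therefore a description and not a test of the pathway. Over all tested genes, 10.7% were called higher in the retina and 10.9% in the cultures. Of 11 other ligands and receptors of the family, 7 were tested in the retina and 1 was called higher, Il11ra1, the receptor chain of IL-11, at 45.0 ± 4.64 CPM with vesicles and 34.2 ± 0.922 CPM with PBS (SD, n = 3 each; log2 fold change 0.40 ± 0.11, edgeR adjusted p = 0.0358). That call was lost under 7 of 13 alternatives, each of which left out libraries or added a block for library number (adjusted p up to 0.145). Cntfr, the CNTF-binding chain, had a log2 fold change of -0.68 in the retina (adjusted p = 0.235) and -0.53 in the cultures (adjusted p = 0.124). The list's median was 0.03 in the retina and -0.01 in the cultures, near the median of all tested genes.

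Of 16 genes for gp130 signalling and receptor shedding, all were tested in the retina, 8 were called higher and 1 lower, with a median log2 fold change of 0.45. Over all tested retina genes 10.7% were called higher and 5.19% lower. Socs3, the feedback inhibitor of gp130, averaged 90.5 ± 31.7 CPM in vesicle retinas and 4.66 ± 1.15 CPM in PBS retinas (log2 fold change 4.28 ± 0.36, edgeR adjusted p = 0.00111). Stat3 averaged 161 ± 36.5 CPM with vesicles and 40.2 ± 8.12 CPM with PBS (2.00 ± 0.22, adjusted p = 0.00129). The transducer of the family and its inhibitor thus rose together. Adam17, the protease that sheds the IL-6 receptor, averaged 33.0 ± 3.05 CPM with vesicles and 19.1 ± 0.309 CPM with PBS (0.79 ± 0.12, adjusted p = 0.00223). Pias3, an inhibitor of STAT3, fell to 46.6 ± 3.86 CPM with vesicles, against 73.1 ± 6.20 CPM with PBS (-0.65 ± 0.11, adjusted p = 0.00334). In the cultures 9 of the 16 were called higher, against 10.9% of all tested genes, with a median of 0.24 (SD, n = 3 each, in this paragraph). Socs3 averaged 164 ± 11.3 CPM there with vesicles and 94.3 ± 11.3 CPM with PBS (0.80 ± 0.07, adjusted p = 5.76e-08), and Stat3 averaged 403 ± 11.1 CPM with vesicles and 312 ± 17.6 CPM with PBS (0.37 ± 0.06, adjusted p = 6.19e-05). The effect was larger in the retina for Socs3 (difference 3.44 ± 0.58, limma adjusted p = 0.00394) and Stat3 (1.63 ± 0.20, adjusted p = 1.72e-04).

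Of 20 genes known to respond to STAT3, 16 were called higher in the retina, with a median log2 fold change of 2.57. Over all tested retina genes 10.7% were called higher and the median was -0.015. Because the list was chosen with earlier results of these data known, its count is a description only. Lcn2, a secreted iron-siderophore carrier, averaged 2040 ± 428 CPM in vesicle retinas and 64.2 ± 9.59 CPM in PBS retinas (log2 fold change 4.99 ± 0.20, edgeR adjusted p = 2.05e-05). Timp1, an inhibitor of matrix metalloproteinases, averaged 551 ± 205 CPM with vesicles and 5.26 ± 0.863 CPM with PBS (6.71 ± 0.39, adjusted p = 2.87e-04). Cebpb, a transcription factor of the acute-phase response, averaged 34.9 ± 8.53 CPM with vesicles and 3.15 ± 0.193 CPM with PBS (3.46 ± 0.21, adjusted p = 4e-05). In the cultures 19 were tested and 14 were called higher, against 10.9% of all tested genes, with a median of 0.70. Lcn2 averaged 118 ± 5.61 CPM there with vesicles and 1.38 ± 0.398 CPM with PBS (6.43 ± 0.12, adjusted p = 3.92e-19), and Timp1 averaged 115 ± 11.4 and 52.4 ± 4.80 CPM in the same order (1.14 ± 0.08). Values after ± are SDs of CPM over 3 libraries per group and SEs of log2 fold changes. Without the library richest in lens mRNA in each group, 9 of these genes and 5 of the signalling genes were called higher in the retina, from 4 libraries. Stat3 then had a log2 fold change of 1.98, close to its 2.00 in all 6 libraries, with an adjusted p of 0.0509. Leukocytes express many genes of these lists, and the leukocyte sums given above moved with them in the retina, but the part of leukocytes in these counts was not tested.

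**Figure D4:**
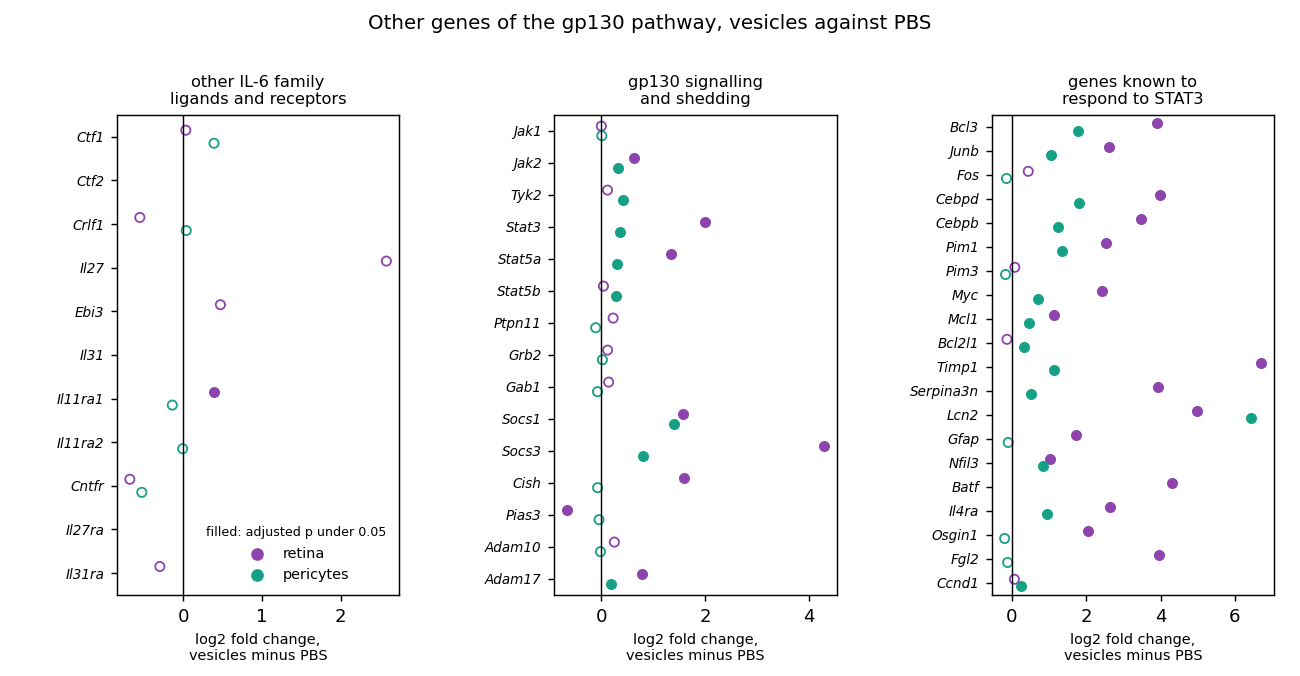
Log2 fold change of the other genes of the pathway, vesicles minus PBS, in the crushed retina and the pericyte-labelled cultures, in 3 lists. Filled points have an adjusted p under 0.05, genes without a point were not tested, and the figure does not draw every gene of the signalling list; the signalling list shows Socs3 at 4.28 in the retina and 0.80 in the cultures, and the STAT3 list has 16 filled retina points and 14 filled culture points.

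The genes whose log2 CPM followed Il6 most closely over the 6 libraries of each setting were listed as a description. Over 14862 genes in the retina they were Eif3i (Pearson r = 0.998), Nip7 (0.997) and Lrrc75a (0.996). Over 14409 genes in the cultures they were Rgs4, Clcf1 and Runx1 (0.999 each), so another member, Clcf1, was among the closest there. The 6 points form 2 groups and share the vesicle difference, so any gene with tight groups that differ scores high.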

How the data were processed

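The authors deposited raw read counts per gene in separate tables for retinas and pericyte-labelled cultures. Per the submitters' processing notes, the authors used FastQC 0.11.8, HISAT2 2.0.5, featureCounts 1.5.0-p3 and limma. Trizol RNA and the NEBNext Ultra RNA kit were used, per the labels' protocols. The genome build and the strand setting are not given in the sources used here, so reads of overlapping genes are uncertain: Cntf shares exons with Zfp91, 8.2% of Clcf1 exon bases overlap another gene on the same strand, and 2.8% of Il6ra exon bases overlap an antisense gene.

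Each table was fitted apart in R 4.3.3 with edgeR 4.0.16, using filterByExpr (minimum count 10), TMM scaling and the robust quasi-likelihood F test, 2-sided. Benjamini-Hochberg adjusted p under 0.05 over all tested genes made a call. With 3 libraries per group an exact permutation test reaches no p under 0.1, so p-values come from this model. CPM used TMM-scaled totals. The difference between settings was fitted with limma 3.58.1 (voom with a weight per table) over genes in both tables. Intervals of count ratios cover counting error only, because they use counts summed over the libraries of a group. They leave out the spread between libraries. Reads carried no molecular identifiers and may repeat 1 molecule, so even the counting error may be understated.

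Mitochondrial mRNA took exactly 0% of counts in every retina library, so the retina counts give no measure of it. In the cultures it took between 1.87% and 2.24% of counts. No library was a copy of another: replicate pairs differed by a chi-squared of at least 11.2 per degree of freedom among retinas and 6.12 among cultures. Retinas varied with a biological coefficient of variation of 0.203, cultures with 0.0818. Alternatives were other scaling, tests (DESeq2 1.42.0, limma) and filters, a block for library number, each library left out, and the retina libraries richest in lens mRNA left out. All members are reported, pathway genes were named in order of p, up to 6 per list and table (not every such gene is reported here), and genes like Il6 by the highest correlation among genes with at least 1 CPM on average in a group. Members and lists were chosen with earlier results of these data known. The series text also describes knockdowns in C3H10T1/2 cells, and no sample here is of that line.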

Additional observations from a re-analysis of the deposited data

Results flagged for a closer look

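The vesicle effect differed between the crushed retina and the pericyte-labelled cultures for all 4 receptor chains by the direct test of the difference (limma interaction). On the log2 scale, retina minus cultures, the difference was 3.11 for Il6ra, 1.71 for Osmr, 1.40 for Il6st and 0.62 for Lifr. The call for Lifr was lost under 7 of 16 alternatives (limma adjusted p up to 0.156). Those for Il6ra, Osmr and Il6st were kept under all 16. Lifr is the member whose own effects pointed in opposite directions, 0.21 in the retina (not called) and -0.38 in the cultures (called).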

How the results depend on the processing

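No result reversed direction. Of 28 results on members, 20 stayed as they were, called or uncalled, under every alternative run. In the retina this held for Il6, Lif, Il6st, Osmr and Il6ra, which stayed called, and for Lifr, which stayed uncalled. In the cultures it held for Il6, Lif, Clcf1, Il11, Osmr and Il6ra, which stayed called. Of the differences between settings, those for Il6st, Osmr and Il6ra stayed called. Those for Il6, Clcf1, Cntf, Il11 and Osm stayed uncalled. Over the alternatives, between 6 and 8 members were called higher in the retina and likewise in the cultures, and the effect was called larger in the retina for between 3 and 5. Without the filter on low counts Il11 was called in the retina (log2 fold change 3.61, adjusted p = 0.0174) and Cntf was not in the cultures (adjusted p = 0.847).

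Counts over all genes moved more. With 1 library left out, genes called higher in the retina numbered between 1048 and 2010 (1648 in all libraries), and lower between 277 and 899 (801). In the cultures genes called lower numbered between 993 and 1573 (1510), and members called lower between 0 and 1. Genes with an effect called larger in the retina numbered between 536 and 1385 (1093). Without the library richest in lens mRNA in each group, 1058 retina genes were called higher and 362 lower. The cause of these shifts was not tested beyond the smaller number of libraries.

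Same-numbered libraries did not match as a set. For retina numbers 1, 2 and 3, their deviations from the group means correlated at 0.183, -0.186 and -0.0573. For cultures the values were 0.0321, 0.0171 and -0.0219. Retina vesicle library 2 correlated at 0.155 with PBS library 3, and vesicle library 3 at 0.209 with PBS library 2. The remaining retina pairs of unlike number reached at most 0.0137, and such culture pairs at most 0.039. Pairing under other numbers was not tested, because the block used here joins same-numbered libraries. With a replicate block, 1395 retina genes were called higher and 524 lower, with 7 members higher. In the cultures the block gave 1814 higher and 1473 lower, with 7 members higher and 1 lower. For the difference between settings it gave 1160 genes larger in the retina and 516 smaller, with 5 members larger. Depth limits Il11, Il6, Lif, Il6ra and Osm in PBS retinas, with 3, 5, 18, 25 and 29 counts in all, in that order. It also limits Cntf, Osm and Il6 in PBS cultures, with 16, 12 and 6 counts in all.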

Other observations

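The balance between receptor chains also differed between groups. Per length, the ratio of Osmr to Lifr was 2.90, 4.96 and 2.54 in vesicle retinas, against 0.601, 0.382 and 0.590 in PBS retinas. In the cultures it was 5.92, 3.74 and 4.38 with vesicles, against 1.63, 1.48 and 1.42 with PBS. So Lifr was the more abundant of the pair in every PBS retina and Osmr in every vesicle retina, while Osmr was the more abundant in all 6 cultures. The ratio of Clcf1 to Lif was 0.752, 0.598 and 0.517 in vesicle retinas, against 2.54, 5.26 and 7.71 in PBS retinas, and 4.48, 5.45 and 4.76 in vesicle cultures, against 11.5, 11.6 and 11.7 in PBS cultures. Lif was low in PBS retinas, which makes the ratio there imprecise.

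Lcn2 ran against most genes of the STAT3 list. Its vesicle effect was smaller in the retina than in the cultures (difference -1.46 ± 0.36 on the log2 scale, limma adjusted p = 0.0174), and this was also called for Bcl2l1, an inhibitor of cell death (-0.46 ± 0.14, adjusted p = 0.0403). Both were singled out after their values were seen. For Timp1 the effect was larger in the retina (5.52 ± 0.63, adjusted p = 6.89e-04).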
